A study of Mus musculus with 8 samples.

Results

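ISG15 is a small protein of the ubiquitin family, and its conjugation to other proteins runs through a short chain of enzymes. The 5 genes described here are Isg15 itself, Uba7, Ube2l6, Herc6 and Usp18, chosen by symbol as the modifier, its activating, conjugating and ligase enzymes and its protease. All 5 were listed among the 24421 genes of the files, and all 5 were among the 12348 genes tested. Calvarial osteoblastic cells, the bone-forming precursors released by enzymes from the skulls of newborn C57BL/6 mice, were cultured from WT mice and from Def6-/- littermates, which lack the guanine nucleotide exchange factor Def6. mRNA was sequenced on day 0 and after 12 days in osteogenic medium, which holds ascorbic acid and β-glycerophosphate, with 2 libraries in each of the 4 groups (WT day 0, WT day 12, Def6-/- day 0 and Def6-/- day 12). The study calls the 2 libraries of a group biological replicates, and whether cells of several pups were pooled in one culture is not given in the sources used here. The cultures were not sorted, so every value is a sum over the cell types in the dish.

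ISGylation resembles ubiquitination. Uba7 (also called UBE1L) activates ISG15 and hands it to Ube2l6 (UBCH8), and Herc6, the main ISG15 ligase in mice, joins it to lysines of target proteins, many of them newly made. Usp18 removes ISG15 from its targets and also binds the type I interferon receptor, where it dampens signalling. Type I interferon raises transcription of all these genes through ISGF3, a transcription factor complex that binds interferon-stimulated response elements (ISREs), and free ISG15 is in addition secreted.

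In the mouse genome GRCm38 with GENCODE M21 annotation, Isg15 lies on the minus strand of chr4:156199424-156200818 and has 756 bases of exon. Uba7 lies at chr9:107975505-107984060 with 3195 bases of exon, Ube2l6 at chr2:84798828-84810335 with 1560, Herc6 at chr6:57581000-57664632 with 4767 and Usp18 at chr6:121245906-121270917 with 1771, all on the plus strand. Their RefSeq promoters (GRCm38.p6, 250 bases before to 50 after the gene start) were available for 4 of the 5 genes, all but Usp18. They were searched on both strands for an ISRE core, spelled GAAANNGAAA, and for the shorter IRF element AANNGAAA, which every ISRE core contains. The stretches next to the start that held a match are printed here because the genes differed in this respect. The first is the 100 bases before the start of Isg15, chr4:156200819-156200918 on the minus strand, and the second is 30 bases around the match of Uba7, chr9:107975529-107975558 on the plus strand. Capitals mark the matched letters.
Isg15: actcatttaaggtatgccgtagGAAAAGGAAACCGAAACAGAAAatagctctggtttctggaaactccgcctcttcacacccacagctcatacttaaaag
Uba7: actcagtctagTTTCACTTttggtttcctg

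The promoter of Isg15 held 3 ISRE cores that overlap each other, from base 78 to base 57 before the start, and 1 further IRF element from base 128 to base 121, outside the printed stretch. An ISRE core was present in 3.44% of the 32851 promoters of the RefSeq table. Uba7 had no ISRE core and 1 IRF element, on the opposite strand, 27 to 20 bases before its RefSeq start, and such an element was present in 23.9% of all promoters. GENCODE places the start of Uba7 62 bases further upstream, so that this element lies within the first exon of that model. Neither motif was found in the windows of Ube2l6 and Herc6. These matches describe letters only.

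Reads on genes numbered 2414856 to 3482837 per library, which was 33.2% to 35.3% of all reads the authors counted in 6 libraries, 28.8% in WT day 0 replicate 1 and 29.7% in WT day 12 replicate 2, and the levels are given as normalized CPM, the reads of a gene scaled to the reads on genes of its library after adjustment for composition. The targeted gene matched the labels: Def6 had 112 to 186 reads in the WT libraries and 0 to 2 in the Def6-/- libraries. Markers of osteoblasts (10 genes, among them Col1a1, Alpl and Bglap) summed to 36835 to 52219 normalized CPM in WT and 48634 to 51927 in Def6-/- libraries at day 0, and to 96405 to 113668 and 116898 to 134932 at day 12. Bglap was at 0 in both groups of day 0. Of the 10 genes, 5 rose in WT and 6 in Def6-/- cells (limma, adjusted p under 0.05), a call that 12.7% and 12% of all genes met. Markers of macrophages and leukocytes (18 genes) were also present, at 277 to 446 in WT and 209 to 330 in Def6-/- libraries at day 0, and at 3310 to 6536 and 3619 to 4050 at day 12. Endothelial markers summed to at most 6.28 in any library, with Tie1 and Emcn at 0 throughout. Adipocyte markers (5 genes) summed to at most 2.37 in any library at day 0, and to 13.8 to 17.8 in WT and 43.1 to 63.2 in Def6-/- libraries at day 12. Of the 4 tested, 3 rose in WT and 4 in Def6-/- cells (limma, adjusted p under 0.05), beside the same 12.7% and 12% of all genes. In such bulk samples fewer cells of a type and less RNA per cell cannot be told apart.

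The mRNA of all 5 genes was low before osteogenic medium and higher after it, in both genotypes. Isg15 stood at 17.4 and 6.01 normalized CPM in the 2 WT libraries of day 0 (44 and 17 reads) and at 78.1 and 152 in those of day 12 (272 and 364 reads). In Def6-/- cells it stood at 1.13 and 5.11 at day 0 (3 and 15 reads) and at 42.3 and 35.4 at day 12 (103 and 83 reads). The libraries of the 2 days did not overlap in either genotype, and the Def6-/- day 0 library of replicate 1 held the least Isg15 of all 8. Uba7, the activating enzyme, was at 1.18 and 1.41 in WT and at 3.39 and 2.72 in Def6-/- cells at day 0 (3, 4, 9 and 8 reads), and at 22.7 and 22.6 in WT and 16.0 and 14.5 in Def6-/- cells at day 12 (79, 54, 39 and 34 reads). Its order of the genotypes was thus the opposite at the 2 days, with Def6-/- libraries above WT at day 0 and below WT at day 12.

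Ube2l6, the conjugating enzyme, was at day 0 the most abundant of the enzymes per kilobase of exon in both genotypes, with 10.3 and 10.6 normalized CPM in WT and 4.14 and 8.86 in Def6-/- libraries (26, 30, 11 and 26 reads). At day 12 it reached 25.8 and 43.1 in WT and 21.4 and 29.9 in Def6-/- libraries (90, 103, 52 and 70 reads), so that the genotypes overlapped. Herc6, the ligase, was at 3.55 and 5.65 in WT and 1.50 and 6.13 in Def6-/- libraries at day 0 (9, 16, 4 and 18 reads). At day 12 it was at 14.1 and 21.4 in WT and at 11.1 and 10.7 in Def6-/- libraries (49, 51, 27 and 25 reads), where the genotypes no longer overlapped. Usp18, the protease, was at 2.37 and 3.18 in WT and 0.376 and 4.09 in Def6-/- libraries at day 0 (6, 9, 1 and 12 reads), and at 21.8 and 40.6 in WT and 12.7 and 11.5 in Def6-/- libraries at day 12 (76, 97, 31 and 27 reads). The lower value of day 0 in Def6-/- cells rested on 1 read. Usp18 was kept for testing by its day 12 levels alone, and Uba7 at day 0 reached the level that kept a gene only in Def6-/- cells.

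**Figure D1:**
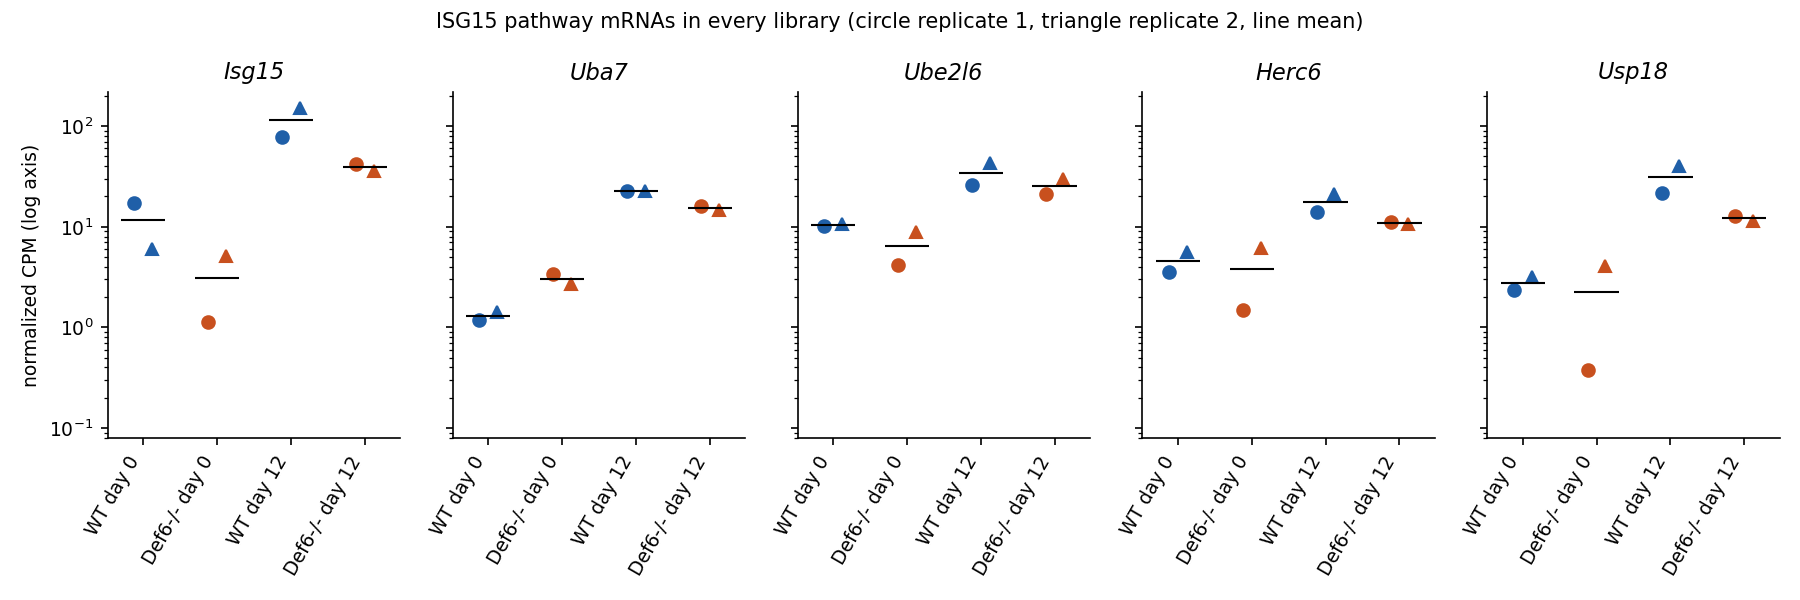
Normalized CPM (y axis, logarithmic) of the 5 genes in each of the 8 libraries, by group (x axis), with circles for replicate 1, triangles for replicate 2, blue for WT, orange for Def6-/- and a line at the group mean. Each gene's day 12 libraries lie above its day 0 libraries of the same genotype, and for Uba7 the order of the genotypes is reversed between the days, from 3.39 and 2.72 over 1.18 and 1.41 at day 0 to 16.0 and 14.5 under 22.7 and 22.6 at day 12.

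The first comparison asked how the pathway changed during osteoblast differentiation. In WT cells 5 of 5 genes rose, by limma across all 12348 genes on the log2(CPM + 1) scale with a Benjamini-Hochberg adjusted p under 0.05, and the background of this call was 12.7% of all genes. Folds from this scale are of CPM + 1 and understate folds of CPM where levels are low. Uba7 had the largest estimate, a rise of 3.36 ± 0.28 (SE) on the log2 scale or 10.3-fold (limma, adjusted p = 0.00014). On recovered reads edgeR and DESeq2 put the rise of Uba7 at log2 4.07 and 4.12. Isg15 rose by 3.28 ± 0.59, or 9.71-fold (limma, adjusted p = 0.00549), and Usp18 by 3.04 ± 0.57, or 8.21-fold (limma, adjusted p = 0.0068). Usp18 entered the test through its day 12 levels alone. Without the filter on low genes its adjusted p was 0.0114 (limma). The estimates were smaller for the conjugating enzyme and the ligase, and the difference between genes was not tested. Ube2l6 rose 3.01-fold (log2 1.59 ± 0.38, limma, adjusted p = 0.0207) and Herc6 3.33-fold (log2 1.74 ± 0.49, limma, adjusted p = 0.0389). The WT libraries of day 12 lay above those of day 0 for 5 of 5 genes, as they did for 29.3% of all genes.

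The call of Uba7 was made with any one of the 4 WT libraries left out, with a log2 change of 3.30 to 3.43. Without WT day 12 replicate 2, the library with the most Isg15, Ube2l6, Herc6 and Usp18 at day 12 after normalization, 1 of 5 genes was called, and the values were 2.80 for Isg15 (limma, adjusted p = 0.0649), 2.60 for Usp18 (adjusted p = 0.0748), 1.23 for Ube2l6 (adjusted p = 0.176) and 1.45 for Herc6 (adjusted p = 0.234). In that library 8.41% of reads were not aligned, against 3.62% to 5.31% in the other 7, and the part of this in its values was not tested. Without WT day 12 replicate 1, 3 of 5 genes were called, and the values of Ube2l6 and Herc6 were 1.91 and 1.99 (limma, adjusted p = 0.0554 and 0.12). Herc6 also missed the threshold without WT day 0 replicate 1 (1.47, limma, adjusted p = 0.0642), a library in which 34.9% of reads did not align uniquely, against 21.4% to 26.6% in the others. It missed it with a pseudocount of 0.1 (1.93, limma, adjusted p = 0.0635) and without the filter on low genes (1.74, limma, adjusted p = 0.0588) as well.

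In Def6-/- cells 4 of 5 genes rose by the same call, whose background was 12% of all genes, and the libraries of the 2 days did not overlap for 5 of 5 genes, beside 35.2% of all genes. Folds are again of CPM + 1, and Isg15 rose 11.0-fold (log2 3.46 ± 0.59, limma, adjusted p = 0.00438). Usp18 rose 4.96-fold (log2 2.31 ± 0.57, limma, adjusted p = 0.0248), Uba7 4.02-fold (log2 2.01 ± 0.28, limma, adjusted p = 0.00171) and Ube2l6 3.69-fold (log2 1.88 ± 0.38, limma, adjusted p = 0.00987). Without the filter on low genes, which Usp18 passed by its day 12 levels alone, its adjusted p was 0.0375 (limma). The difference for Herc6 was 1.49 ± 0.49 on the log2 scale and did not pass (limma, adjusted p = 0.0706). The call of Usp18 depended on 3 of the 4 Def6-/- libraries, since it was at 2.24 without day 12 replicate 1 (limma, adjusted p = 0.137), at 2.38 without day 12 replicate 2 (limma, adjusted p = 0.12) and at 1.37 without day 0 replicate 1 (limma, adjusted p = 0.132). Without that day 0 library, or without day 12 replicate 2, Ube2l6 also missed the threshold (1.42, limma, adjusted p = 0.0831, and 1.65, limma, adjusted p = 0.099), which left 2 of 5 genes. Without Def6-/- day 0 replicate 2, 5 of 5 genes passed, with Herc6 at 2.24 (limma, adjusted p = 0.0186).

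The marker genes of macrophages and leukocytes moved with the days too. Of these 18 genes, 16 were called higher at day 12 in WT and 15 in Def6-/- cells, beside 12.7% and 12% of all genes. Their medians were 3.14 and 3.08 on the log2 scale. Between the 2 WT libraries of day 12, replicate 1 held the larger marker sum (6536 against 3310 normalized CPM) and the lower Isg15, Ube2l6, Herc6 and Usp18. Uba7 was at 22.7 and 22.6 there. In each other group the library with the larger sum held more Isg15. The sums were 446 and 277 with Isg15 at 17.4 and 6.01 in WT day 0. In Def6-/- cells they were 330 and 209 with 5.11 and 1.13 at day 0, and 4050 and 3619 with 42.3 and 35.4 at day 12. Lyz2 had the highest mean of the 18 genes in every group, 2988 normalized CPM in WT and 2319 in Def6-/- cells at day 12. The part of these cells in the change over the days was not tested.

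**Figure D2:**
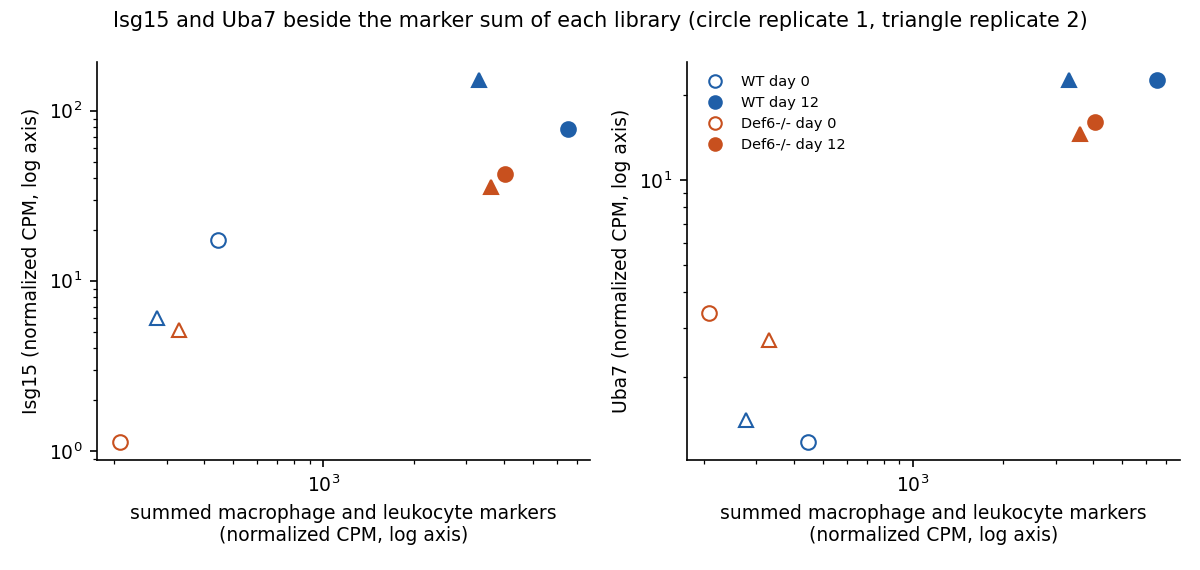
Normalized CPM of Isg15 (left) and Uba7 (right) on logarithmic y axes against the summed normalized CPM of 18 macrophage and leukocyte markers on logarithmic x axes, 1 point per library, open for day 0 and filled for day 12, blue for WT and orange for Def6-/-, circles for replicate 1 and triangles for replicate 2. The marker sums of day 12 (3310 to 6536) lie above those of day 0 (209 to 446). The WT day 12 library with the larger sum has the lower Isg15, 78.1 against 152. In each other group the library with the larger sum has the higher Isg15.

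The second comparison asked how Def6-/- cells differed from WT cells at day 12, and here the call followed the criteria of the study, an unadjusted p under 0.05 and a change over 1.2-fold. Of the 5 genes, 1 was called lower in Def6-/- cells, beside 0.591% of all genes. The mean of Isg15 was 38.9 ± 4.85 normalized CPM in Def6-/- and 115 ± 52.6 in WT cells (SD, n = 2). The difference was -1.47 ± 0.59 (SE) on the log2 scale, or 0.361 times the WT value of CPM + 1 (limma, unadjusted p = 0.0341, Benjamini-Hochberg adjusted p = 1). Usp18 was at 12.1 ± 0.85 and 31.2 ± 13.3, a difference of -1.23 ± 0.57 that did not pass (limma, unadjusted p = 0.0597). Uba7 was at 15.3 ± 1.06 and 22.6 ± 0.0429, a difference of -0.54 ± 0.28 (limma, unadjusted p = 0.0873), Herc6 at 10.9 ± 0.292 and 17.7 ± 5.16, a difference of -0.63 ± 0.49 (limma, unadjusted p = 0.23), and Ube2l6 at 25.6 ± 6.03 and 34.5 ± 12.2, a difference of -0.39 ± 0.38 (limma, unadjusted p = 0.333).

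All 5 differences were below 0, and 4 of 5 genes, all but Ube2l6, had both Def6-/- libraries under both WT libraries, which 15.9% of all genes also had. Of all genes tested, 49.9% had a difference above 0. The only gene with an adjusted p under 0.05 in this comparison was Def6 (limma). The call of Isg15 depended on single libraries: the difference was -0.99 without WT day 12 replicate 2 (limma, unadjusted p = 0.218), -1.60 without Def6-/- day 12 replicate 1 (limma, unadjusted p = 0.0788) and -1.35 without Def6-/- day 12 replicate 2 (limma, unadjusted p = 0.127). Usp18 was called in addition on recovered reads, at -1.35 by edgeR (unadjusted p = 0.0257) and -1.36 by DESeq2 (unadjusted p = 0.0145). All 18 macrophage and leukocyte markers also had a difference below 0 at day 12, with a median of -0.33 and 0 of 18 called by limma, edgeR or DESeq2 at an unadjusted p under 0.05. Adipocyte markers had a difference above 0: of the 4 tested, Adipoq (1.66), Plin1 (1.73), Cfd (1.91) and Fabp4 (1.28), 4 were called higher by limma, edgeR and DESeq2, a call that 0.81% of all genes met by limma, and the adjusted p was 1 for each (limma). Of the osteoblast markers Bglap was called higher, at 1.13 (limma, unadjusted p = 0.00935, adjusted p = 1). The part of these cells in the difference of the pathway was not tested.

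At day 0, before osteogenic medium, the same call found 1 of 5 genes lower and 1 of 5 higher in Def6-/- cells, beside 1.31% and 0.988% of all genes. The mean of Isg15 was 3.12 ± 2.81 normalized CPM in Def6-/- and 11.7 ± 8.03 in WT cells (SD, n = 2), a difference of -1.65 ± 0.59 (SE) on the log2 scale (limma, unadjusted p = 0.0206, adjusted p = 0.908). Uba7 was the gene that was higher, at 3.06 ± 0.468 and 1.30 ± 0.162, on 17 reads in the Def6-/- and 7 in the WT group. The difference was 0.82 ± 0.28 or 1.76-fold of CPM + 1 (limma, unadjusted p = 0.018, adjusted p = 0.908). By edgeR and DESeq2 the difference of Uba7 was 1.19 and 1.23 on the log2 scale (unadjusted p = 0.0487 and 0.114). Both libraries of Def6-/- cells were under both of WT for Isg15 and Ube2l6 (11.7% of all genes) and above both for Uba7 (10.9% of all genes). The differences of Ube2l6, Herc6 and Usp18 were -0.68, -0.38 and -0.50, none past the call (limma, unadjusted p = 0.106, 0.454 and 0.4).

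These calls depended on single libraries. Def6-/- day 0 replicate 1 held 3 reads of Isg15, 4 of Herc6 and 1 of Usp18, against 15, 18 and 12 in replicate 2. Without it 0 of 5 genes were called by limma (unadjusted p under 0.05), with Isg15 at -0.89 (unadjusted p = 0.178) and Uba7 at 0.70 (unadjusted p = 0.0905), and Herc6 and Usp18 turned to 0.37 and 0.44. Without Def6-/- day 0 replicate 2, 5 of 5 genes were called, and without WT day 0 replicate 1, 1 was, with Isg15 at -0.96 (limma, unadjusted p = 0.0933). The summed macrophage and leukocyte markers of Def6-/- day 0 replicate 1 were the lowest of the 8 libraries, at 209 normalized CPM, and their part was not tested.

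**Figure D3:**
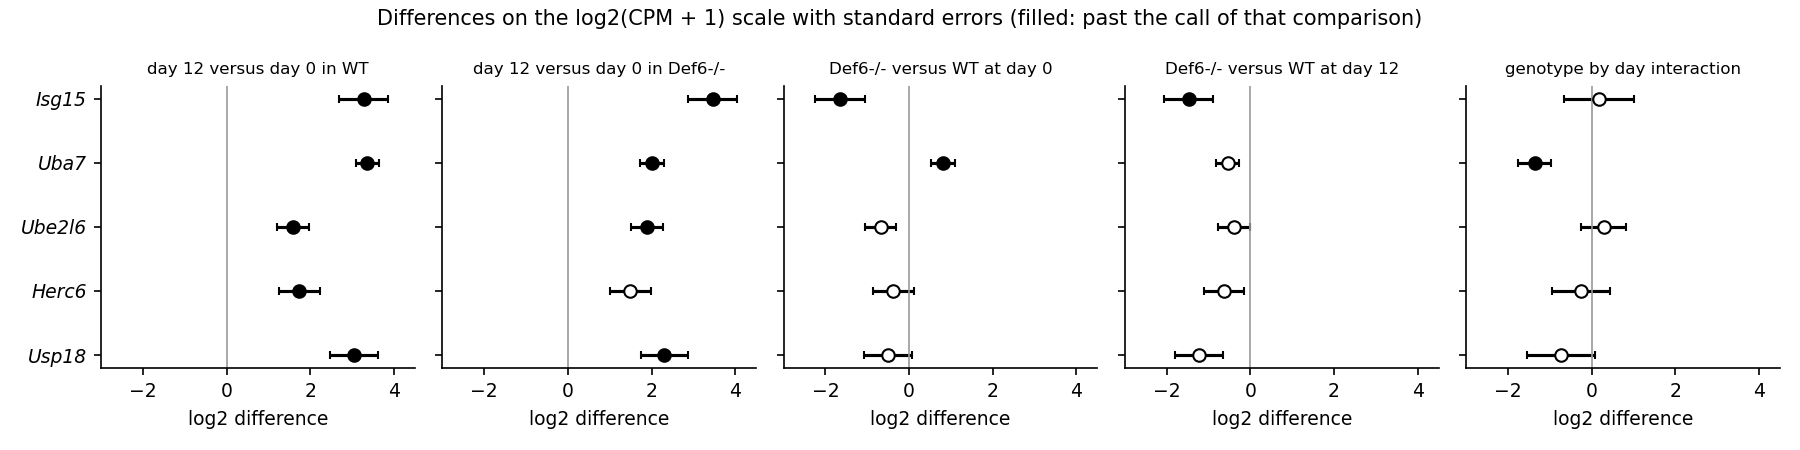
Differences on the log2(CPM + 1) scale (x axis) with standard errors for the 5 genes (y axis) in 5 comparisons from one limma fit, filled where the gene passed the call of that comparison. The changes over the days lie between 1.49 and 3.46 in both genotypes, the genotype differences at day 12 between -1.47 and -0.39, and Uba7 alone of the 5 is above 0 in Def6-/- cells at day 0 (0.82) and past the call in the interaction (-1.36).

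The interaction of genotype and day tested whether the change over the days differed between the genotypes. Of the 5 genes, 1 passed at an unadjusted p under 0.05, Uba7, and it was among the 0.421% of all genes whose change was smaller in Def6-/- cells by this call. All 4 groups enter this test, so it shares its libraries with the comparisons above. The change of Uba7 was 2.01 in Def6-/- and 3.36 in WT cells on the log2 scale, and the interaction was -1.36 ± 0.40 (SE) (limma, unadjusted p = 0.00802, adjusted p = 1), the 11th smallest p of 12348 genes. Leaving out each library in turn gave values from -1.47 to -1.24 for it. The interactions of the others were 0.18 for Isg15, 0.29 for Ube2l6, -0.25 for Herc6 and -0.73 for Usp18, with unadjusted p of 0.39 or more (limma). Among the markers, 3 of 4 adipocyte and 2 of 10 osteoblast genes passed with a larger change in Def6-/- cells by limma (0.696% of all genes), and 0 and 2 by edgeR and 0 and 0 by DESeq2 (unadjusted p under 0.05). No gene of the whole table passed at an adjusted p under 0.05 by limma, edgeR or DESeq2, while 138, 143 and 45 genes had an unadjusted p under 0.05.

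The make-up of the pathway was read within libraries, per kilobase of exon, since longer mRNAs yield more reads. At day 12 Isg15 was the most abundant of the 5 in every library, at 103 and 202 normalized CPM per kilobase in WT and 55.9 and 46.9 in Def6-/- libraries. In WT cells Ube2l6 followed at 22.1 ± 7.84 (SD, n = 2), Usp18 at 17.6 ± 7.51, Uba7 at 7.09 ± 0.0134 and Herc6 at 3.72 ± 1.08. Ube2l6 was above Usp18 within each of these libraries, at 16.6 against 12.3 in replicate 1 and 27.7 against 22.9 in replicate 2. This order was not tested. In Def6-/- cells the order was the same, with Ube2l6 at 16.4 ± 3.87, Usp18 at 6.85 ± 0.48, Uba7 at 4.78 ± 0.332 and Herc6 at 2.28 ± 0.0613. At day 0 the order was less clear. In WT cells Isg15 was at 15.5 ± 10.6 and Ube2l6 at 6.69 ± 0.153, and Uba7 was last at 0.406 ± 0.0508, under Herc6 at 0.965 ± 0.312. In Def6-/- cells Ube2l6 and Isg15 were within their spread at 4.16 ± 2.14 and 4.13 ± 3.72, as were Usp18, Uba7 and Herc6 at 1.26 ± 1.48, 0.956 ± 0.146 and 0.801 ± 0.686.

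A ratio of each enzyme to Isg15 within a library, on the log2(CPM + 1) scale, was compared between the 4 libraries of day 12 and the 4 of day 0. The mean ratio was lower at day 12 by 1.63 for Ube2l6 and by 1.76 for Herc6, from 0.50 ± 0.84 (SD, n = 4) to -1.14 ± 0.70 and from -0.41 ± 1.08 to -2.16 ± 0.52, and neither passed (two-sided exact permutation test, p = 0.0571 and 0.0857, adjusted over the 4 ratios p = 0.171 for both). The differences of -0.68 for Uba7 and -0.70 for Usp18 did not pass either (exact permutation test, p = 0.514 and 0.143, adjusted p = 0.514 and 0.19). For Uba7 the difference was 0.08 in WT and -1.45 in Def6-/- libraries, and 0.02 without Def6-/- day 0 replicate 1. The smallest p this design can give is 0.0286. At day 12 the ratio of Usp18 to Isg15 had the least spread, at -1.79 and -1.88 in WT and -1.66 and -1.54 in Def6-/- libraries.

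Across the 8 libraries the 5 genes followed each other to unequal degrees, described here by Pearson's r of log2(CPM + 1) over libraries that share the day groups. Herc6 and Usp18 were the closest pair at 0.99. Isg15, Ube2l6, Herc6 and Usp18 had r of 0.914 to 0.99 among themselves, and Uba7 had 0.80 to 0.859 with each of them. Among all tested genes, those most like Isg15 were Serinc4 (0.988), B2m (0.982), the light chain of MHC class I, and Dhx58 (0.981), an RNA sensor of the RIG-I family. Most like Ube2l6 were the cytidine deaminase Apobec3 (0.989), the immunity-related GTPase Irgm1 (0.984) and Fndc5 (0.982). Next to Usp18, Herc6 was most like Cldn19 (0.988), and most like Usp18 were the interferon-induced Oasl2 (0.993), Herc6 and Dhx58 (0.979). The genes most like Uba7 were Ptgir (0.995), the prostacyclin receptor, Hhip (0.991), a hedgehog-binding protein, and Neto2 (0.991), which is an auxiliary subunit of kainate receptors.

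Of 9 further ligases and proteases reported to act on ISG15, 1 was called higher over the days in WT and 1 in Def6-/- cells. The same call (limma, adjusted p under 0.05) was met by 12.7% and 12% of all genes. In Def6-/- cells 1 of 9 was called lower, beside 4.79% of all genes, and in WT cells 0, beside 5.63%. Trim25, a ligase that is itself induced by interferon, rose in both genotypes, by 1.78 in WT and 1.59 in Def6-/- cells (limma, adjusted p = 0.0179 and 0.0298). Its normalized CPM was 13.2 ± 6.88 in WT and 13.2 ± 6.91 in Def6-/- cells at day 0, and 44.6 ± 3.83 and 38.9 ± 1.30 at day 12 (SD, n = 2). Usp14, a proteasome-bound deubiquitinase, fell by 0.73 in Def6-/- cells (limma, adjusted p = 0.044) and was at -0.54 in WT cells (limma, adjusted p = 0.112). The remaining genes were not called, and the medians of the list were -0.31 and -0.29 in WT and Def6-/- cells. Between the genotypes 0 of 9 genes were called at either day by limma, edgeR or DESeq2 at an unadjusted p under 0.05, and the differences at day 12 lay between -0.23 and 0.12. By limma 0.591% of all genes were called lower and 0.81% higher at day 12, and 1.31% and 0.988% at day 0.

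None of the counterparts of the pathway in the ubiquitin, NEDD8, SUMO and UFM1 systems passed the call for a rise over the days. That call was met by 12.7% of all genes in WT and 12% in Def6-/- cells. A difference above 0 was found for 5 of these 24 genes in WT and 4 in Def6-/- cells, at most 0.62 and 0.78. Of 24 genes, 2 fell in WT cells and 2 in Def6-/- cells by limma at an adjusted p under 0.05, a call that 5.63% and 4.79% of all genes met. In WT cells 3 fell by edgeR and 4 by DESeq2, in Def6-/- cells 2 by either, and 0 rose by any of the 3 tools. In both directions together 7 of 24 in WT and 4 in Def6-/- cells had an unadjusted p under 0.05 by limma. So did 4018 and 3714 of all 12348 genes. Herc3, a ligase of the same HERC family as Herc6, fell by 1.71 in WT and 1.54 in Def6-/- cells (limma, adjusted p = 0.0142 and 0.0232), from 19.3 ± 2.83 to 5.55 ± 3.11 and from 18.1 ± 2.77 to 5.63 ± 1.32 normalized CPM (SD, n = 2). Uba3, a subunit of the NEDD8-activating enzyme, fell by 0.74 in WT cells (limma, adjusted p = 0.0242), and Uba6, a second activating enzyme for ubiquitin, by 1.11 in Def6-/- cells (limma, adjusted p = 0.0159). Close relatives of the pathway enzymes, chosen after their values were seen, did not pass. Uba1, the main ubiquitin-activating enzyme, was at -0.21 in WT and -0.36 in Def6-/- cells, and Ube2l3, the close relative of Ube2l6, at -0.06 and 0.06 (limma, adjusted p of 0.242 or more for these 4 values). The medians of the list were -0.33 and -0.31, beside medians of all genes of -0.001 and 0.01. Between the genotypes 0 of 24 genes were called at day 12 by limma, edgeR or DESeq2 (unadjusted p under 0.05), beside 0.591% of all genes lower and 0.81% higher by limma. At day 0 Uba6 was called higher in Def6-/- cells, by 0.62 (limma, unadjusted p = 0.0344, adjusted p = 0.908), beside 0.988% of all genes.

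**Figure D4:**
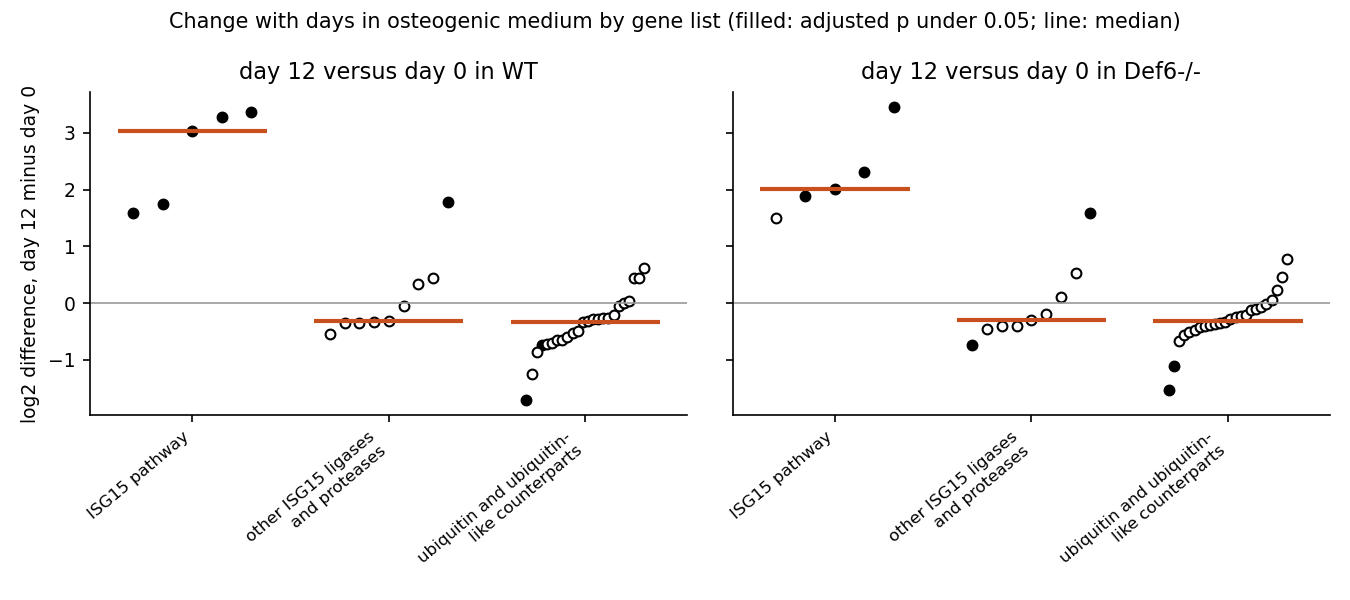
Differences between day 12 and day 0 on the log2(CPM + 1) scale (y axis) for each gene of 3 lists (x axis) in WT (left) and Def6-/- cells (right), filled where the adjusted p was under 0.05, with a line at the median of each list. The 5 pathway genes have medians of 3.04 and 2.01, the 9 other ISG15 ligases and proteases -0.31 and -0.29, and the 24 ubiquitin and ubiquitin-like counterparts -0.33 and -0.31.

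Stat2, Irf9 and Irf7, which encode transcription factors of the interferon response, rose in both genotypes beside the pathway. Stat2, a subunit of ISGF3, rose by 1.99 in WT and 1.18 in Def6-/- cells (limma, adjusted p = 0.00367 and 0.0385). Irf9, the DNA-binding subunit of ISGF3, rose by 1.65 and 0.96 (limma, adjusted p = 0.00421 and 0.0474), and Irf7, a factor that amplifies interferon production, by 2.36 and 2.22 (limma, adjusted p = 0.00883 and 0.0119). The receptor chains Ifnar1 and Ifnar2 were at 0.14 and 0.45 in WT and at 0.18 and 0.51 in Def6-/- cells and did not pass (limma, adjusted p of 0.172 or more). At day 12 Irf7 and Irf9 were lower in Def6-/- cells by the call of the study, with differences of -1.43 and -0.65 (limma, unadjusted p = 0.0136 and 0.0443, adjusted p = 1 for both). These were 2 of 10 interferon receptor and ISGF3 genes, beside 0.591% of all genes, and DESeq2 called 1 of the 10 lower. At day 0 Irf7 was called lower, 1 of the 10 beside 1.31% of all genes. Its difference was -1.30 (limma, unadjusted p = 0.0216, adjusted p = 0.908), with 2.61 ± 2.09 normalized CPM in Def6-/- and 7.20 ± 1.81 in WT cells (SD, n = 2).

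Reads could be shared between genes for parts of these mRNAs. Herc6 shared 12% of its 50-base words with Gm45193, Isg15 3.96% with another GENCODE gene, Uba7 2.52% with Gm20661, Ube2l6 2.01% with 2700054A10Rik, and Usp18 none. Of these other genes only 2700054A10Rik is among the 24421 genes of the files. Herc6 also shared words with 166 genes of the files, at most 0.384% with any of them. Uba7, Herc6 and Usp18 overlap other GENCODE genes, for Usp18 and in part for Herc6 on the opposite strand. None of the overlapping genes is among the genes of the files. The strand setting and annotation of the counting are not given in the sources used here, so the values of these 3 genes are uncertain to that extent.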

How the data were processed

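Total RNA was poly-A selected and sequenced in 8 libraries. HISAT2 placed the reads on mm10 and HTSeq assigned them to genes, and the authors deposited CPM from edgeR, whose denominator counts every read, also those off genes. The annotation, strand setting and tool versions are not given in the sources used here. Whole reads were recovered from the CPM (99.957% of 114821 positive values within 0.01 of a whole read, 0 exceptions among the 5 genes). CPM was rescaled to reads on genes with TMM factors, and genes whose mean deposited CPM reached 1 in any group were tested with limma 3.58.1 (eBayes with trend, log2(CPM + 1), 4 group means, 8 libraries) with Benjamini-Hochberg adjustment, in R 4.3.3. edgeR 4.0.16 and DESeq2 1.42.0 ran on recovered reads as alternatives, beside a pseudocount of 0.1, no filter, deposited scaling, the groups compared only, a replicate block and each library left out. The limma, edgeR and DESeq2 steps were tried on simulated data, with changes set and scored only for the genotypes at day 12. The simulated replicates had the same spread for all genes, which need not match these libraries. Values that are not whole occurred in 9 genes: Acp5, Adgre1, Cd14, Csf1r, Ctsk, Fcgr3, Itgam, Itgb3 and Ptprc. Of these only Ptprc is in the marker lists (1 gene). Its deposited CPM entered limma and the marker sums without rounding, and edgeR and DESeq2 used it rounded to whole reads.

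The members and gene lists were chosen with earlier results of these data known. The rule names all members, list genes past a call and, for each member, the 3 genes with the highest r. Marker genes past a call over the days or in the interaction are given by counts and sums instead, other exceptions are stated, and 1 gene of the other lists is not reported here. With 2 libraries per group, p-values measure only the spread between these libraries, and the depth of 2414856 to 3482837 reads on genes limits what 1 to 20 reads can show. Sequences are from RefSeq and positions from GENCODE M21.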

Additional observations from a re-analysis of the deposited data

Results flagged for a closer look

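The interaction of genotype and day for Uba7 was -1.36 on the log2 scale and passed only without adjustment (limma, unadjusted p = 0.00802, adjusted p = 1). No gene of the whole table passed this test at an adjusted p under 0.05. At day 0 the value for Uba7 rested on 7 reads in the WT and 17 in the Def6-/- group.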

How the results depend on the processing

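Members called between the genotypes at day 12 (1 in the report) numbered 0 with a pseudocount of 0.1, 2 with CPM as deposited, with edgeR and with DESeq2, 4 with only the groups compared and 0 to 1 with a library left out. At day 0 (2 in the report) they numbered 1 with CPM as deposited and with DESeq2, 0 with only the groups compared, where Usp18 could not be fitted because the filter removed it, and 0 to 5 with a library left out. With a library left out, 1 to 5 rose in WT and 2 to 5 in Def6-/- cells, and 1 to 2 passed the interaction. Directions turned for the interaction of Isg15 (-0.24 with CPM as deposited, -0.58 to 0.94 with a library left out), Herc6 (-1 to 0.51), Ube2l6 (-0.17 to 0.76) and Usp18 (-1.67 to 0.21), for the day 0 differences of Herc6 (-1.13 to 0.37) and Usp18 (-1.44 to 0.44), and for the ratio of Uba7 to Isg15 (-1.35 to 0.02 with a library left out, 0.08 in WT libraries). Deposited scaling moved the median of all genes at day 0 from -0.02 to 0.10. The cause was not tested.

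With the replicate number as a block 2 members were called at day 12, Usp18 at -1.23 (limma, unadjusted p = 0.0282) being the second, and Ube2l6 at day 0 and Herc6 over the days in Def6-/- cells also passed. The labels tie the numbers to no litter or batch. Deviations of same-numbered libraries from their group means had r of 0.037 to 0.327 over the tested genes, the highest between the genotypes at day 0. Whether the numbers mark a pairing cannot be decided from these values.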
